A study of Drosophila melanogaster with 6 samples.

Results

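The mitochondrial protein import machinery was followed here through 10 genes of the TOM and TIM complexes, Tom20, Tom40, Tom70, Tom7, Tim8, Tim10, Tim13, Tim17b, Tim23 and ttm50. They were taken by symbol out of the 17494 genes in the count table. Flight muscles of Drosophila melanogaster pupae were dissected 64 h after puparium formation (APF). The 3 M1BP RNAi libraries came from pupae carrying UAS-M1BP RNAi and the driver Mef2-GAL4, and the 3 WT libraries from pupae carrying Mef2-GAL4 without the RNAi transgene. M1BP is a zinc finger protein that binds Motif 1 at the promoters of broadly expressed genes. Mef2-GAL4 is active in all muscles, and the study states that it can also act in some neurons and that Mef2 is expressed in the fat body. M1BP RNAi under a neuronal or a fat body driver gave no sarcomeric or mitochondrial defect of flight muscle there. The RNAi line used for sequencing was the weaker of those in the study. Each library pooled hand-dissected muscles of several pupae, whose sex was not given. In bulk RNA of this kind, fewer cells of a type and less RNA per cell cannot be told apart.

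Nearly all mitochondrial proteins are made in the cytosol and must cross the mitochondrial membranes. The TOM complex of the outer membrane recognises them through its receptors Tom20 and Tom70 and passes them through the pore formed by Tom40. Tom7 is a small subunit of this complex. Small TIM proteins (Tim8, Tim10 and Tim13 among them) escort hydrophobic precursors across the intermembrane space. The TIM23 complex, with the channel protein Tim23, its partner Tim17 and the receptor Tim50, takes precursors with a presequence through the inner membrane, where a motor built around mitochondrial Hsp70 pulls them into the matrix. Flight muscle is packed with mitochondria, and it builds up its respiratory chain in the pupal stages sampled here.

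The libraries held 42215400 to 43136388 counts in M1BP RNAi and 43017456 to 54890681 in WT. M1BP itself (FBgn0037621) had 166, 178 and 134 counts in M1BP RNAi muscles, against 396, 203 and 351 in WT muscles, log2FC -1.38 ± 0.15 (SE, edgeR adjusted p = 9.54e-04). Without any 1 library its edgeR adjusted p was 0.00198 to 0.00841, so the call was lost. Here and below log2FC is the fitted log2 ratio of M1BP RNAi over WT in edgeR's quasi-likelihood test, its p adjusted over all tested genes. Levels are CPM, the counts scaled to a common library size after TMM normalisation. The 10 muscle markers examined summed to 108657 to 112406 CPM in M1BP RNAi and 149014 to 165103 CPM in WT. Of them 0 were called higher and 1 lower (Act88F). Without a call, Mhc, fln, TpnC4, wupA, up and Mlc2 were lower at an edgeR adjusted p of 0.00454 to 0.0189. For bt, sls and Mf it was 0.151 to 0.964. An edgeR adjusted p of 0.05 or less was reached by 30.7% of all tested genes. No tested marker of neurons, myoblasts, haemocytes, fat body, trachea or tendon was called, which does not show an equal content of these tissues. Of the 4 myoblast markers only 1, zfh1, was tested, and E(spl)m6-BFM was at the floor of detection. The fat body markers summed to 158 to 277 CPM in M1BP RNAi and 82.1 to 290 CPM in WT. Those of trachea and tendon summed to 378 to 425 CPM in M1BP RNAi and 267 to 504 CPM in WT. The 5 haemocyte markers summed to 32.6 to 43.7 CPM in M1BP RNAi and 20.3 to 24.1 CPM in WT. Among them Pxn and Hml were higher, at an edgeR adjusted p of 0.00175 and 0.0138. NimC1 and eater had 0.518 and 0.536, and He was not tested. Transcripts from mtDNA accounted for 15.1%, 23.4% and 19.7% of the counts in M1BP RNAi and 26.2%, 44.2% and 26.3% in WT. roX1, a dosage compensation RNA made in males, had 1698, 1507 and 3210 counts in M1BP RNAi and 2, 6 and 884 in WT, so WT replicates 1 and 2 held almost none of it. The groups did not overlap in roX1, so a fit with roX1 as a covariate cannot fully tell it apart from the RNAi. WT replicate 3 stood apart from the other 5 libraries on the second principal component, which held 24.5% of the variance. The part of these marker, mtDNA and roX1 values in the results below was not tested, except where a fit is given.

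Of the 10 import genes, 9 were expressed in all libraries and 1, Tim13, never exceeded 1 count. In edgeR no import gene passed the threshold of the study, an adjusted p of 0.001 together with a change of 1.5-fold or more. The study itself applied that threshold in DESeq2. By edgeR's quasi-likelihood test 0 were called higher and 0 lower, where 5.09% of the 8806 tested genes were called, 2.2% higher and 2.88% lower. Unadjusted, 3 import genes were higher and 1 lower at a p under 0.05, as were 41.4% of all tested genes in either direction. DESeq2 at the threshold of the study called 2 import genes higher (Tom70 and Tom7) and 0 lower, and 11.2% of all genes, 6.08% higher and 5.08% lower. When the edgeR threshold was relaxed to 0.05 and the fold minimum dropped, 3 import genes were higher (Tom70, Tom7 and Tim10) and 1 lower (Tim23). Of all tested genes 30.7% passed that relaxed threshold, 13.8% higher and 16.9% lower. Missing a threshold does not show that a gene kept its level. In 4 of the 9 tested import genes the groups did not overlap, as was so for 46.5% of all tested genes. The 9 had a median log2FC of 0.05, against -0.02 over all tested genes.

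**Figure D1:**
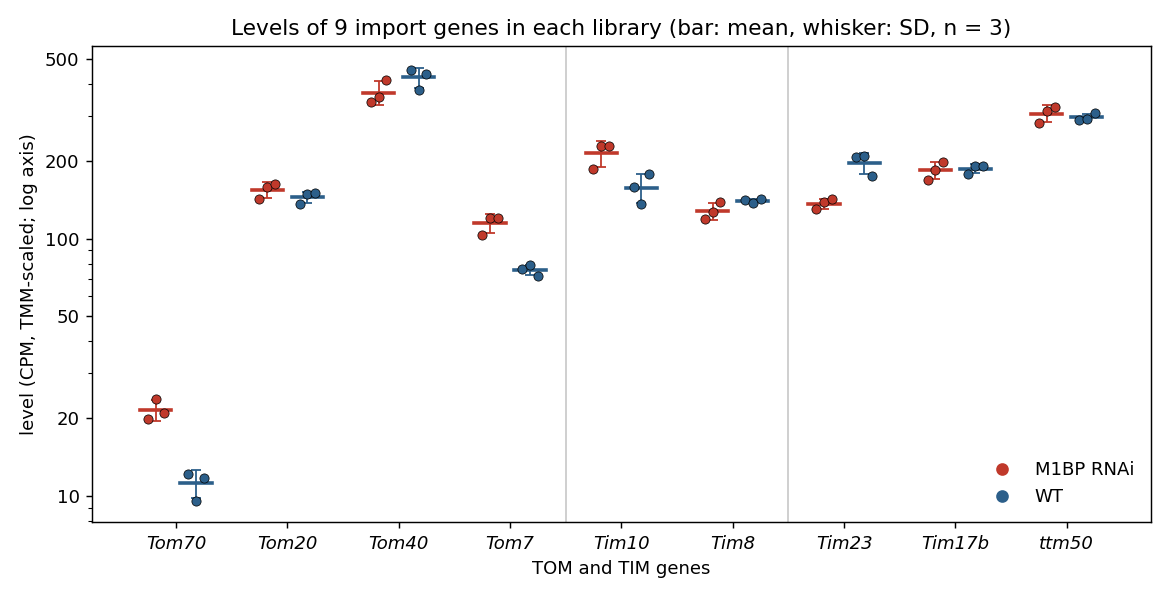
Level of 9 import genes in each library, in CPM on a log axis, with 3 M1BP RNAi libraries (red) left of 3 WT libraries (blue), bars at the mean and whiskers of 1 SD. The groups lay apart for Tom70, Tom7, Tim10 and Tim23 and overlapped for the other 5 genes shown. Tim13, with 2 counts in all libraries together, is left out.

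The outer membrane receptors were examined first. Tom70 (FBgn0032397, chromosome 2L, 12035984 to 12038511, minus strand, dm6), the receptor for hydrophobic precursors handed over by chaperones, had 19.9, 23.9 and 21.1 CPM in M1BP RNAi replicates 1, 2 and 3, against 12.1, 9.58 and 11.8 CPM in WT replicates 1, 2 and 3. Every M1BP RNAi library lay above every WT library. Tom70 averaged 21.6 ± 2.05 CPM in M1BP RNAi and 11.2 ± 1.39 CPM in WT (SD, n = 3 each). Tom70 was 1.93-fold higher, with a 95% interval of 1.58-fold to 2.36-fold (log2FC 0.95 ± 0.12, SE, edgeR adjusted p = 0.00187). Tom70 thus passed the fold minimum and missed the p threshold in edgeR, while DESeq2 gave 1.65e-08 for the adjusted p. These values rest on 279 to 1192 counts per library, the fewest among the 9 genes. The 148 exon bases that Tom70 shares with CG18788 lie on opposite strands, and CG18788 had at most 8 counts in any library. Whether the counting used strand was not given in the sources used here.

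Tom20 (FBgn0036928, chromosome 3L, 20000644 to 20002446, plus strand), the receptor for presequences, had 142, 160 and 163 CPM in M1BP RNAi and 136, 149 and 150 CPM in WT. Here the groups overlapped. Its log2FC of 0.09 ± 0.08 (SE) had a 95% interval of -0.10 to 0.29 (edgeR, adjusted p = 0.426). Tom20 starts 42 bases from Gabat, which runs on the opposite strand and had 7.34 ± 0.908 CPM in M1BP RNAi and 6.01 ± 1.47 CPM in WT (SD, n = 3 each, edgeR adjusted p = 0.317).

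Within the translocase itself, the pore and the small subunit differed in sign. Tom40 (FBgn0016041, chromosome X, 7736893 to 7739978, plus strand), the pore, had 340, 356 and 415 CPM in M1BP RNAi and 455, 379 and 438 CPM in WT. M1BP RNAi replicate 3 was above WT replicate 2, so the groups overlapped, and log2FC was -0.19 ± 0.11 (SE, 95% interval -0.45 to 0.06, edgeR adjusted p = 0.220). Tom7 (FBgn0033357, chromosome 2R, 8951595 to 8952242, plus strand) had 104, 121 and 120 CPM in M1BP RNAi, against 76.4, 78.7 and 71.9 CPM in WT. All M1BP RNAi libraries were above all WT libraries. Tom7 was 1.52-fold higher, with a 95% interval of 1.32-fold to 1.74-fold (log2FC 0.60 ± 0.08, SE). Its adjusted p was 0.00269 in edgeR and 2.65e-07 in DESeq2.

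The start of babo, which encodes a type I receptor of the activin pathway, lies 744 bases from that of Tom7 on the same strand. In contrast to Tom7, babo fell to 8.68 ± 0.566 CPM in M1BP RNAi, against 16.7 ± 0.692 CPM in WT (SD, n = 3 each), with log2FC -0.94 ± 0.09 (SE, edgeR adjusted p = 4.82e-04). The call of babo was lost whichever library was left out, at an edgeR adjusted p of 0.00118 to 0.00588. On the opposite strand, CG8229 and CG33199 both start 509 bases from Tom7. Their log2FC values of -0.02 ± 0.07 and 0.06 ± 0.07 (SE) had 95% intervals of -0.19 to 0.15 and -0.11 to 0.23.

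The small TIM genes gave 3 different pictures. Tim10 (FBgn0027360, chromosome 2R, 21690215 to 21691139, minus strand), a partner of Tim9 in a chaperone of the intermembrane space, had 187, 230 and 228 CPM in M1BP RNAi and 159, 137 and 178 CPM in WT. The lowest M1BP RNAi library was just above the highest WT library, and log2FC was 0.44 ± 0.13 (SE, edgeR adjusted p = 0.0365). Without M1BP RNAi replicate 2, M1BP RNAi replicate 3, WT replicate 1 or WT replicate 2 the edgeR adjusted p was 0.0769 to 0.134, and with roX1 as a covariate it was 0.296. That covariate was itself confounded with the group. Tim10 shares 90.7% of its exon bases with CG42497, which has the same counts to within 1 read in every library, so the reads of these genes cannot be told apart. A synonym that RefSeq gives for CG42497 names it an upstream reading frame of Tim10.

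Tim8 (FBgn0027359, chromosome X, 11368445 to 11369283, plus strand) had 119, 127 and 139 CPM in M1BP RNAi and 141, 137 and 143 CPM in WT. M1BP RNAi replicate 3 lay between the WT libraries, and log2FC was -0.13 ± 0.08 (SE, 95% interval -0.31 to 0.05, edgeR adjusted p = 0.251). Tim13 (FBgn0036204, chromosome 3L, 11774060 to 11774501, minus strand) had 1, 1 and 0 counts in M1BP RNAi and 0, 0 and 0 in WT. It failed the filter on low counts and gave no test. In yeast the Tim8 and Tim13 proteins form a chaperone together. The 2 counts concern only the gene annotated as Tim13, and whether another gene supplies such a protein in these muscles was not examined. A count of 3, taken as the floor of detection, is 0.0695 to 0.0711 CPM before TMM scaling in the M1BP RNAi libraries and 0.0547 to 0.0697 in the WT libraries, for counting error only.

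Head-to-head with Tim10, Ppcdc and CG42496 start 156 bases away on the opposite strand and have identical counts. They ran against it, with 31.9, 35.7 and 39.7 CPM in M1BP RNAi and 56.4, 57.1 and 53.7 CPM in WT, log2FC -0.64 ± 0.10 (SE, edgeR adjusted p = 0.00339). CG10307, whose exons share 39 bases with Tim10 on the other strand, had 2.56 ± 0.391 CPM in M1BP RNAi and 1.11 ± 0.0862 CPM in WT (SD, n = 3 each, edgeR adjusted p = 0.00341). None of these 3 passed the threshold of 0.001 in edgeR. DESeq2 called all 3 at the threshold of the study, with an adjusted p of 8.34e-06 for Ppcdc and CG42496 and 1.65e-04 for CG10307. The Tim8 neighbour hop, the Drosophila Janus kinase, starts 347 bases away and had log2FC -0.19 ± 0.10 (SE, 95% interval -0.42 to 0.04). CG2712, at 279 bases from ttm50, had 0.19 ± 0.26 (SE, 95% interval -0.43 to 0.81).

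Among the TIM23 genes the values of Tim23 differed between the groups and those of its partners overlapped. Tim23 (FBgn0267976, chromosome 2L, 23312465 to 23313578, minus strand), the channel of the presequence translocase, had 130, 139 and 142 CPM in M1BP RNAi, against 208, 209 and 176 CPM in WT. All 3 M1BP RNAi libraries were below all 3 WT libraries, of which replicate 3 was the lowest. Its level in M1BP RNAi was 0.694 times that in WT, with a 95% interval of 0.599 to 0.803 (log2FC -0.53 ± 0.09, SE). Tim23 had an adjusted p of 0.00544 in edgeR and 3.28e-05 in DESeq2, and its difference was below 1.5-fold, so neither tool called it. With the level of roX1 as a covariate log2FC was -0.35 (edgeR, adjusted p = 0.0598), and without WT replicate 3 it was -0.56 (edgeR, adjusted p = 0.00173). Because roX1 did not overlap between the groups, the covariate fit cannot tell a part of roX1 from a part of the RNAi.

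Tim17b (FBgn0263977, chromosome 3R, 3734855 to 3745306, plus strand), the partner of Tim23 in the core of the translocase, had 170, 185 and 198 CPM in M1BP RNAi and 179, 191 and 192 CPM in WT. The groups overlapped, and log2FC was -0.02 ± 0.08 (SE, 95% interval -0.21 to 0.17, edgeR adjusted p = 0.870). ttm50 (FBgn0250874, chromosome X, 2730077 to 2732190, minus strand), the homologue of the receptor Tim50, had 282, 313 and 326 CPM in M1BP RNAi and 290, 292 and 308 CPM in WT. Its log2FC was 0.05 ± 0.08 (SE, 95% interval -0.13 to 0.23, edgeR adjusted p = 0.680). The sign for Tim17b turned with the scaling and with the library left out, and that for ttm50 with roX1 as a covariate and without M1BP RNAi replicate 3. Both intervals lay inside a change of 1.5-fold.

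**Figure D2:**
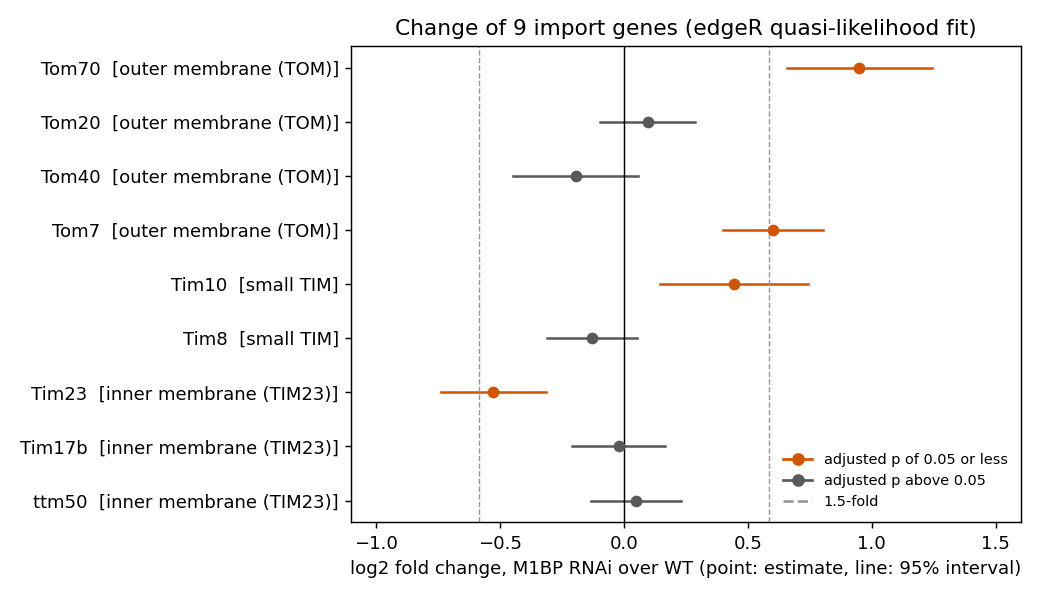
Log2 fold change of 9 import genes, M1BP RNAi over WT, from the edgeR fit, with lines for the 95% interval and dashed lines at 1.5-fold. Tom70 and Tom7 lay beyond the 1.5-fold line at 0.95 and 0.60, Tim10 (0.44) and Tim23 (-0.53) lay inside it, and the intervals of the other 5 genes crossed 0.

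The 4 genes past the relaxed threshold were followed through the fits that left out 1 library. Tom70 had log2FC values of 0.87 to 1.04, its edgeR adjusted p reaching 0.0117, in these 6 fits, and Tom7 had 0.56 to 0.67 with up to 0.0199. For Tim23 they were -0.56 to -0.46 with up to 0.0303, the highest without M1BP RNAi replicate 2. Tim10 ranged over 0.37 to 0.59. None of the 10 genes was called at the threshold of the study in any of these fits (0 in each by edgeR).

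To compare levels between genes, CPM were divided by exon length. In M1BP RNAi muscles Tim10 was the highest at 282 ± 32.0 CPM per kb (SD, n = 3) and Tom7 followed at 213 ± 17.7. In WT muscles Tim23 was the highest at 221 ± 21.1 CPM per kb and Tim10 followed at 207 ± 27.0 (SD, n = 3 each). Tim23 therefore stood eighth of 9 in M1BP RNAi, at 153 ± 6.79 CPM per kb, and first in WT, and Tom7 stood second in M1BP RNAi and eighth in WT, at 140 ± 6.50 CPM per kb. Most neighbours in these orders were not separated. In M1BP RNAi the ranges of neighbours overlapped from Tom7 down to Tim23, and gaps lay only between Tim10 and Tom7 and between Tim23 and Tom70. In WT, gaps lay only between ttm50 and Tom20 and between Tom7 and Tom70. Tom70 was the lowest in both, at 8.86 ± 0.840 CPM per kb in M1BP RNAi and 4.58 ± 0.569 CPM per kb in WT (SD, n = 3 each).

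**Figure D3:**
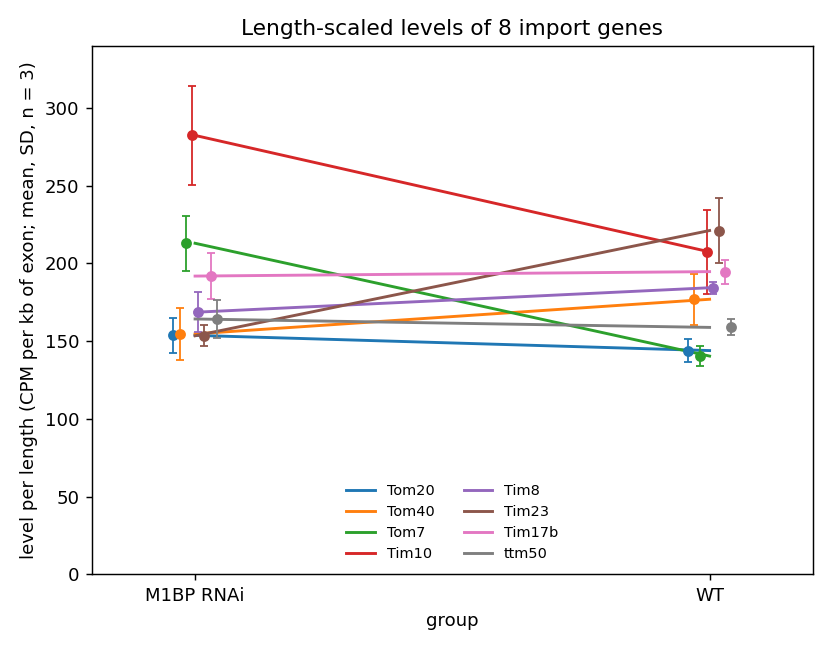
Mean level per length of 8 import genes, in CPM per kb of exon with whiskers of 1 SD (n = 3), in M1BP RNAi (left) and WT (right), joined by a line for each gene. Lines cross where the order changed, with Tim23 highest in WT at 221 and near the bottom in M1BP RNAi at 153. Tom70, below 10 in both groups, is not drawn.

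Ratios between subunits were then taken within each library, since no scaling of libraries can change them. The 10 pairs within a complex were formed after the levels had been seen, and they share genes. The ratio of Tim23 to Tim17b, in counts per base, was 0.825, 0.806 and 0.772 in M1BP RNAi and 1.25, 1.18 and 0.987 in WT. That of Tim23 to ttm50 was 0.968, 0.926 and 0.912 in M1BP RNAi and at least 1.19 in every WT library, a log2 difference of -0.57. Both ratios were lower in every M1BP RNAi library, whereas Tim17b to ttm50 differed little, at 1.17 ± 0.0165 in M1BP RNAi and 1.23 ± 0.0409 in WT (SD, n = 3 each).

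In the TOM complex the ratio of Tom7 to Tom40 was 1.38 ± 0.113 in M1BP RNAi (SD, n = 3), against 0.747, 0.922 and 0.730 in the WT libraries, a log2 difference of 0.79. The ratio of Tom70 to Tom20, the pair of receptors, was 0.0578, 0.0619 and 0.0534 in M1BP RNAi, against 0.0368, 0.0266 and 0.0325 in WT. Tom70 to Tom40 had the largest difference of the 10 pairs, 1.15 on the log2 scale, and Tim10 to Tim8 differed by 0.58. The groups did not overlap in any of the 10 ratios. In CPM of single genes that was so for 46.5% of all tested genes, and no such share was computed for ratios. In the exact permutation test, two-sided, every ratio had a p of 0.1, the smallest that 3 libraries against 3 can give, and 0.1 after adjustment over the 10 pairs. Of the summed counts per base of the 4 TOM genes, Tom7 made up 40.2% ± 1.10 in M1BP RNAi and 30.2% ± 1.82 in WT, and Tom40 29.2% ± 1.56 in M1BP RNAi and 37.9% ± 2.86 in WT (SD, n = 3 each).

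**Figure D4:**
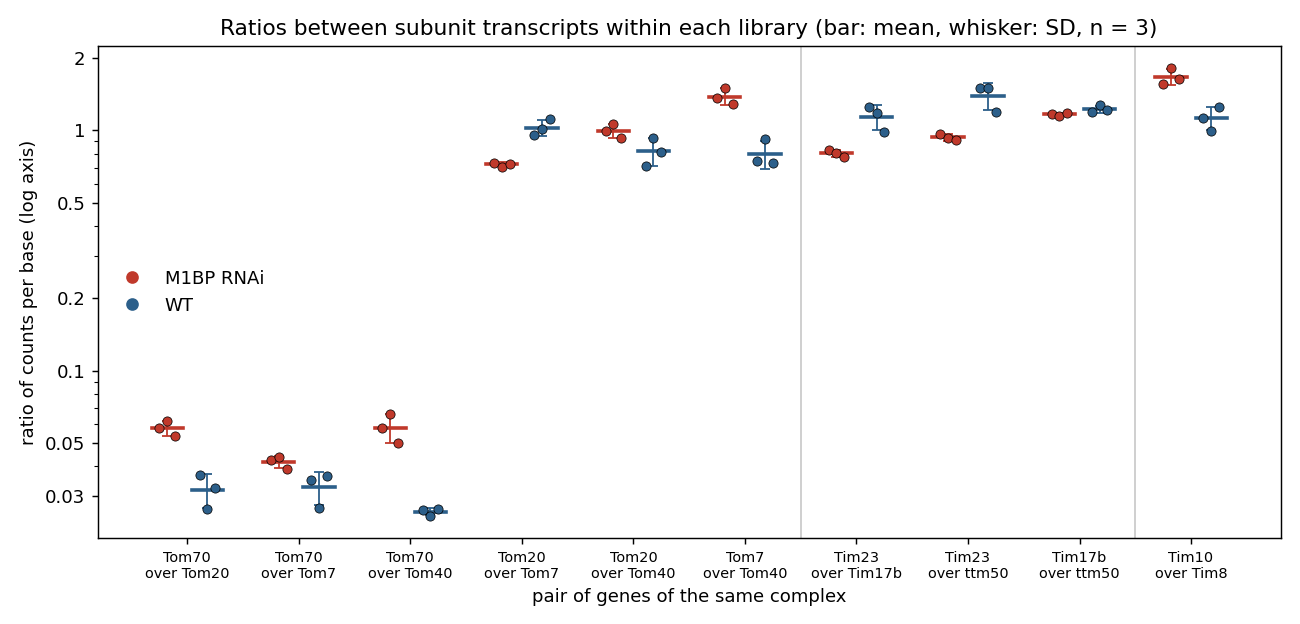
Ratio of counts per base between 2 genes of the same complex in each library, on a log axis, for 10 pairs in the TOM, TIM23 and small TIM groups, with M1BP RNAi (red) left of WT (blue), bars at the mean and whiskers of 1 SD. The groups lay clearly apart for Tom70 to Tom40 and Tim23 to ttm50, and close together for Tim17b to ttm50 at 1.17 and 1.23.

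Several import genes have paralogues that the study's list of import and sorting genes also holds. The 8 examined here were almost silent in these muscles. tomboy20 had 12 counts in the 6 libraries together, beside 41028 for Tom20, and tomboy40 had 14, beside 108127 for Tom40. The 4 paralogues of Tim17b (Tim17b1, Tim17b2, Tim17a1 and Tim17a2) had 2 to 7 counts each beside 50544 for Tim17b. ttm2 and ttm3 had 20 and 7, beside 82569 for ttm50, and 11 of the ttm2 counts were in WT replicate 3. None of these 8 paralogues passed the filter, so 0 were tested in edgeR, and their level could not be compared between groups at this depth.

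The other genes of the pathway were taken from the process called Import & Sorting in the study's gene lists. Of 51 such genes, 35 passed the filter. By edgeR's quasi-likelihood test 0 were called higher and 1 lower, beside 2.2% and 2.88% of all tested genes. The called gene, CG14270, fell to 30.6 ± 2.57 CPM in M1BP RNAi, against 61.0 ± 6.13 CPM in WT (SD, n = 3 each), or to 0.501 times the WT level (edgeR, adjusted p = 8.25e-04). Without any 1 library the call of CG14270 was lost at an edgeR adjusted p of 0.00142 to 0.00804, while its log2FC stayed at -1.06 to -0.91. Unadjusted, 8 of the 35 were higher and 13 lower at a p under 0.05, where 41.4% of all tested genes were either. DESeq2 called 1 higher (Roe1) and 1 lower, with 6.08% and 5.08% of all genes called in these directions. At the relaxed threshold 5 of the 35 were higher and 10 lower, beside 13.8% and 16.9% of all tested genes. The median log2FC of the 35 was -0.12, which is the value of CG7950 and Rpp14a. Those genes share nearly all exon bases and have identical counts, so their reads enter this list under both names.

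The import motor of the matrix was read through 5 genes of that list. Roe1, the GrpE homologue that recharges mitochondrial Hsp70, had 128 ± 16.1 CPM in M1BP RNAi and 72.7 ± 14.3 CPM in WT (SD, n = 3 each), with log2FC 0.81 ± 0.16 (SE, edgeR adjusted p = 0.00991). Hsc70-5, mitochondrial Hsp70 itself, had log2FC 0.52 ± 0.12 (SE, edgeR adjusted p = 0.0158). CG11779, the Tim44 homologue that tethers the motor to the channel, had -0.22 ± 0.08 (SE, edgeR adjusted p = 0.0835). For blp and CG7394, the Pam16 and Pam18 homologues, the 95% intervals were -0.09 to 0.32 and -0.14 to 0.31. Of these 5 genes, 0 were called at the threshold of the study by edgeR, beside 5.09% of all tested genes. DESeq2 called 1 (Roe1), beside 11.2% of all tested genes. Unadjusted, 2 were higher and 1 lower at a p under 0.05, beside 41.4% of all tested genes in either direction, and 2 were higher at the relaxed threshold, beside 13.8% of all tested genes.

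Among the remaining TOM, SAM and small TIM genes, mge, the Tom22 homologue, had 324 ± 20.8 CPM in M1BP RNAi and 346 ± 17.4 CPM in WT (SD, n = 3 each, edgeR adjusted p = 0.388). Tim9a, a partner of Tim10, had log2FC 0.51 ± 0.12 (SE, edgeR adjusted p = 0.0213), close to the value of Tim10 and of the same sign. Tim9b had -0.07 ± 0.08 (SE), but all of its exon bases are shared with Pstk on the same strand. CG7639, the Sam50 homologue, had 0.37 ± 0.14 (SE, edgeR adjusted p = 0.0828). CG8728, the homologue of the alpha subunit of the processing peptidase, had 179 ± 8.06 CPM in M1BP RNAi and 179 ± 9.77 CPM in WT (SD, n = 3 each).

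**Figure D5:**
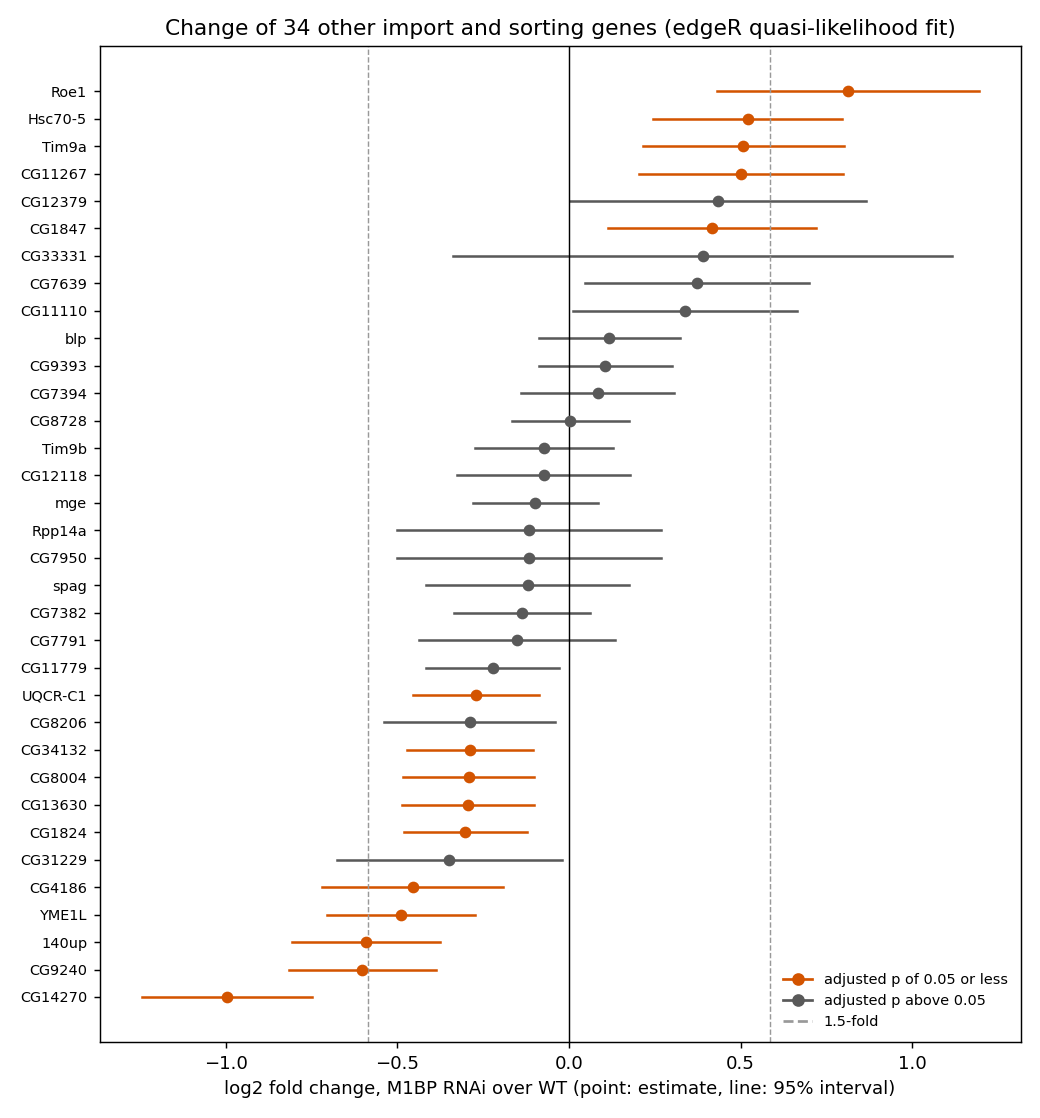
Log2 fold change of 34 other import and sorting genes, M1BP RNAi over WT, from the edgeR fit, with lines for the 95% interval and dashed lines at 1.5-fold. Roe1 (0.81) was at the top and CG14270, at 0.501 times the WT level, at the bottom. CG9920, the last of the 35 tested genes, had an interval of -2.75 to 3.76 and is left out.

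The nuclear-encoded structural subunits of OXPHOS, which must be imported, are set beside the import genes. Of the 73 subunits, 70 had log2FC below 0, beside 4528 of the 8806 tested genes. The median of the subunits was -0.31. At the threshold of the study edgeR called 1 subunit higher and 4 lower, 6.85%, beside 5.09% of all tested genes. DESeq2 called 1 higher and 6 lower, 9.59%, beside 11.2% of all tested genes. The study itself reported a clearly larger share of structural subunits as downregulated at this age. That share came from its own DESeq2 comparison, which was not used here, and the reason for the difference was not examined. Of the 9 tested import genes 4 were below 0 and 5 above, with a median of 0.05. At the relaxed threshold 67.1% of the subunits were lower, against 11.1% of the tested import genes and 16.9% of all tested genes. The difference between these lists was not tested.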

How the data were processed

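RNA of pupal flight muscle was sequenced from 3 M1BP RNAi and 3 WT libraries, grouped by sample title. The authors deposited raw counts of reads per gene on dm6, which are not normalised. The submitters' processing notes name bcl2fastq 2.17.1.14, Subread 2.0.3 and featureCounts. The aligner settings, annotation release and strand setting were not given in the sources used here. The count table has 1 line that names no gene, with 0 counts. The authors' own comparison was not used, except for its gene symbols. It holds mean counts, log2 fold changes, standard errors and p-values.

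Groups were compared with the quasi-likelihood test of edgeR 4.0.16 (R 4.3.3), with TMM scaling, edgeR's filter and Benjamini-Hochberg adjustment over all tested genes, at the study's threshold (adjusted p of 0.001, 1.5-fold). A standard error is the log2 fold change divided by the square root of F, and intervals use the moderated degrees of freedom. The test was tried on simulated data, where at this threshold it missed most changes of 1.5-fold and 2-fold. DESeq2 1.42.0, RLE scaling, other filters and thresholds, leaving out mtDNA genes, a replicate block, roX1 as a covariate and leaving out each library were alternatives. Replicates of a group differed by more than sampling noise (46.5 to 448 chi-square units per degree of freedom). The study's methods describe triplicate RNA preparations and state, for its experiments in general, that the 3 replicates were biologically independent. The labels do not say which cultures of flies the libraries came from, and p-values measure the spread between these libraries. Coordinates and exon overlaps come from the count table, and all 10 genes have the same start and end in the Ensembl annotation.

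The import genes and lists were chosen with earlier results of these data known. The genes named are M1BP, the 10 import genes, listed genes called or with a stated role, genes that overlap an import gene or start within 1000 bases of one, and the 3 genes nearest in pattern to Tom70 and to Tim23.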

Additional observations from a re-analysis of the deposited data

How the results depend on the processing

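The 0 calls among the import genes became 2 higher with DESeq2, and 3 higher and 1 lower when 0.05 replaced 0.001 without a fold minimum. The other alternatives left both counts at 0. With roX1 as a covariate, which is confounded with the group, 0 import genes were lower at an adjusted p of 0.05. Of the other import and sorting genes, DESeq2 called 1 higher, and an adjusted p of 0.05 gave 5 higher and 10 lower. With RLE scaling, the replicate block, roX1 as a covariate or any 1 library left out, 0 of them were called lower (0 to 0 over the fits without 1 library). Over all genes, 194 higher and 254 lower became 572 and 478 with DESeq2, 75 and 116 with the replicate block, 39 and 115 with roX1 as a covariate, and 1212 and 1489 at an adjusted p of 0.05. Leaving out 1 library gave 26 to 246 higher and 44 to 231 lower. The cause of these differences was not tested. Tim17b changed sign with DESeq2 (9.19e-04), with genes of low counts kept (9.94e-04), under RLE scaling (0.0056) and without mtDNA genes (0.0147), and ranged over -0.0787 to 0.0451 without 1 library. ttm50 was -0.0260 with roX1 as a covariate and ranged over -1.64e-05 to 0.12 without 1 library. M1BP lost its call with RLE scaling, without mtDNA genes, with the replicate block, with roX1 as a covariate and without any 1 library, at log2 fold changes of -1.51 to -1.26. babo lost its call with the replicate block, with roX1 as a covariate and without any 1 library, and kept its sign. The block and the pairing rest on replicate numbers only: libraries of the same number had correlated deviations of 0.31, -0.04 and 0.27, and M1BP RNAi replicate 2 correlated best with WT replicate 3. The search for Motif 1 in promoters was not run, because no promoter sequence was used here.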

Other observations

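The genes whose values over the 6 libraries lay nearest to those of Tom70, by the mean absolute difference of centred log2 CPM among 8805 tested genes, were Clbn (0.03), CG13014 (0.04) and eIF2D (0.04). Clbn, whose homologues act in ribosome quality control, had 32.2 CPM in M1BP RNAi and 16.5 CPM in WT on average, and eIF2D, a translation initiation factor, had 25.0 CPM in M1BP RNAi and 12.6 CPM in WT. CG13014 had 1.80 CPM in M1BP RNAi and 0.888 CPM in WT. For Tim23 the nearest were CaMKII, the calcium/calmodulin-dependent kinase (0.02), bun (0.02) and aph-1, a subunit of gamma-secretase (0.03). CaMKII had 285 CPM in M1BP RNAi and 414 CPM in WT, a log2 fold change of -0.54 ± 0.08 (SE). This is a likeness over 3 libraries of each group, given as a description without a test.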
